A study of Mus musculus with 6 samples.

Results

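The H3K9me3 peaks described here were those that the deposited list of wild type (WT)-specific peaks named for a vomeronasal type 2 receptor gene, Vmn2r followed by a number, with pseudogenes (names ending in -ps and a number) left out. They were 213 of the 34673 peaks of the list, and they carried 90 gene names. H3K9me3 was measured by chromatin immunoprecipitation and sequencing in Bergmann glia (BG), the radial glia of the cerebellar cortex, which the study sorted from C57BL/6 mice at postnatal day 10. There were 2 WT libraries, 2 mutant (MT) libraries and 2 control libraries titled input, whose antibody label was IgG. The labels gave MT no genotype, and the methods describe a conditional deletion of Setdb1, an enzyme that trimethylates H3K9, by mGFAP-Cre in mice carrying the Nes-GFP reporter used for sorting. That Cre acts in the neural cells of the cerebellum other than Purkinje cells, so the deletion was not limited to BG, and Nes-GFP also marks a few oligodendrocytes. A WT-specific peak was present in WT and absent in MT. The list pooled the libraries and gave 1 score per peak, with no value for any library, so neither replicate error nor read depth could be had and no difference between WT and MT could be tested. Counts, shares and positions are given with 95% Wilson intervals, which cover the number of peaks only and treat peaks as independent although neighbouring peaks and copies of 1 sequence are not.

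Vmn2r genes encode G protein-coupled receptors with a long extracellular ligand-binding part. They are used by sensory neurons of the basal vomeronasal organ, where they detect peptide and protein cues and signal through the G protein subunit Gnao1 and the channel Trpc2. In the mouse they lie in arrays of close relatives, pseudogenes among them, on several chromosomes, and such arrays are rich in L1 and endogenous retrovirus sequence. H3K9me3 is the mark of constitutive heterochromatin and is known to cover retrotransposons and silent gene arrays. Whether BG transcribed any Vmn2r gene was not measured in these libraries.

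The sequences of a few peaks show what the peaks covered, with mm10 coordinates, 5′ to 3′ on the plus strand. The first 3 lines are the middle 240 bases of the peak with the highest score, of the highest-scoring peak on an L1 element and of the peak nearest to a transcription start site (TSS), with each CG dinucleotide in capitals. The Vmn2r35 stretch, chr7:7808236-7808475, lay in an IAPEz-int provirus in intron 4 of 5 and held 5 CG. The Vmn2r92 stretch, chr17:18130369-18130608, lay in an L1Md_F2 element and held 8. The Vmn2r18 stretch, chr5:151588345-151588584, lay in an MTB-int element and held 1.
Vmn2r35: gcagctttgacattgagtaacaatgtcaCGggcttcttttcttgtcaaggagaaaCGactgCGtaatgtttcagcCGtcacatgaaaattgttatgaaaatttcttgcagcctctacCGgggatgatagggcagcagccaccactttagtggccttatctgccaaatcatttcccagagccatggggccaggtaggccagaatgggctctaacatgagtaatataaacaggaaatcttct
Vmn2r92: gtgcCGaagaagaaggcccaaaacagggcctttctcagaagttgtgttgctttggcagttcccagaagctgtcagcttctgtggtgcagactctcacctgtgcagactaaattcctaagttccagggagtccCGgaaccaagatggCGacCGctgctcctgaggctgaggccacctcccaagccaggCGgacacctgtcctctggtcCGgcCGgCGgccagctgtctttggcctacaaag
Vmn2r18: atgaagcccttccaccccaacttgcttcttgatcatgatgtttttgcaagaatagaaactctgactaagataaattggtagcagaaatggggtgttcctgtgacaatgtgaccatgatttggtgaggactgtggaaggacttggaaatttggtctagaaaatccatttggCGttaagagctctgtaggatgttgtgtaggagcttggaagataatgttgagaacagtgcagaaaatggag

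A further pair shows how alike some peaks were. The lines below are 150 bases of a peak named for Vmn2r36, chr7:7874868-7875017, and of a peak named for Vmn2r47, chr7:8665533-8665682, both on L1Md_F2. The capital marks the 1 base at which the 501 bases of the Vmn2r36 peak differed from their copy, which overlaps the Vmn2r47 peak.
Vmn2r36: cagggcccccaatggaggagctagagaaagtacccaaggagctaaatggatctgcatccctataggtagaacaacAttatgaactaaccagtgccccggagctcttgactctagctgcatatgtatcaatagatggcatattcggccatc
Vmn2r47: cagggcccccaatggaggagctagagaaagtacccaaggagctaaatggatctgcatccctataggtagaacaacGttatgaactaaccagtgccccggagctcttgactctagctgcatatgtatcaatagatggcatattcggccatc

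Peaks were named for 89 of the 126 Vmn2r genes of the RefSeq annotation of the same build, 70.6% (95% interval 62.2% to 77.9%), against 47.8% of all 21843 protein-coding genes. The 90th name, Vmn2r123, was not in that annotation. Read on the plus strand, its TSS in the list was chr4:156331126, next to the start of annotated Vmn2r129, chr4:156331103-156339499. Vmn2r129 was counted here as having no named peak. All 89 were among the 123 members annotated as protein-coding, and the 3 members of pseudogene biotype, Vmn2r125, Vmn2r127 and Vmn2r128, had none. This count rested on the naming rule, by which each peak takes the gene of the nearest TSS at any distance. With 1 bp or more of a peak inside the gene, 35 of 126 members remained, 27.8% (20.7% to 36.2%), against 31.1% of all protein-coding genes, so that by position inside the gene the family stood no higher than the background. With 5 kb added to either side it was 54 members, 42.9% (34.6% to 51.6%), against 40.3%. Counting only named peaks outside repeats left 28 members, 22.2% (15.8% to 30.2%), below the 32% of all protein-coding genes, the opposite order to the count by name. The protein-coding members were 24.5 kb long at the median, against 17.2 kb for all protein-coding genes.

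Among the 126 genes, 37 had no peak, 35 had 1, 24 had 2, 10 had 3 and 20 had 4 or more. Genes with 4 or more peaks made up 15.9% (10.52% to 23.2%) of the members and 9.89% of all protein-coding genes. Vmn2r37 on chromosome 7 and Vmn2r97 on chromosome 17 had 7 peaks each, and Vmn2r36 and Vmn2r45 had 6. Another 9 genes had 5, namely Vmn2r44, Vmn2r47, Vmn2r58, Vmn2r96, Vmn2r98, Vmn2r103, Vmn2r104, Vmn2r120 and Vmn2r121. For Vmn2r37 the 7 scores ran from 6.42 to 11.2, over positions from 107 kb upstream of the TSS to 41.6 kb downstream. For Vmn2r97 they ran from 5.46 to 12.5, from 148 kb upstream to 57.8 kb downstream. Both genes held a single one of their 7 peaks in an intron.

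Of the 37 genes without a named peak, 3 nevertheless held part of one, Vmn2r56, Vmn2r91 and Vmn2r126. The second highest score of all Vmn2r peaks, 18.3 at chr17:18130239-18130739, lay in intron 5 of 5 of Vmn2r91 and was named for Vmn2r92, whose TSS was 21.4 kb away. Of the other genes without a peak, 32 had none within 5 kb either. Vmn2r84, Vmn2r85 and Vmn2r86 were 3 of the 4 genes of a cluster on chromosome 10 that held no peak at all.

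By chromosome, 99 peaks (46.5%) at 42 genes lay on chromosome 7 and 65 (30.5%) at 20 genes on chromosome 17. Chromosome 5 had 14 peaks at 8 genes, chromosome 10 had 13 at 5, chromosome 3 had 7 at 6, chromosome 6 had 5 at 4 and chromosome 14 had 3 at 2. The 5 peaks of chromosome X were all named for Vmn2r121, and chromosome 4 and an unplaced contig of it had 1 each. The 42 genes on chromosome 7 compare with 52 members annotated there and the 20 on chromosome 17 with 32. On chromosome 6, 4 of 9 members had a peak.

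Runs of at least 3 Vmn2r genes less than 1 Mb apart, pseudogenes counted, gave 13 clusters with 119 of the members. They spanned 15.1 Mb and held 265 peaks of any name, 182 of them Vmn2r peaks. That was 17.6 peaks per Mb, against 12.7 over chromosomes 1 to 19, X and Y. Most of the cluster length lay on chromosomes 7 and 17, which held 18.0 and 16.8 per Mb outside their largest Vmn2r cluster. The genome-wide value is therefore not matched by chromosome. Repeat-masked bases, the lower-case letters of the reference, made up 52.5% of the clusters and 36.4% of those chromosomes. In 9 of the 13 clusters the density was above that of the rest of the same chromosome.

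The largest clusters stood close to their chromosomes. Vmn2r-ps35 to Vmn2r52, chr7:7153726-10176286, held 56 peaks at 18.5 per Mb beside 18.0 in the rest of chromosome 7. Vmn2r90 to Vmn2r110, chr17:17703941-20596259, held 50 at 17.3 per Mb beside 16.8. The densest was Vmn2r-ps53 to Vmn2r56, chr7:12445358-12733320, with 11 peaks at 38.2 per Mb. Next was a cluster of 1 Vmn2r gene, Vmn2r18, among 4 pseudogenes, chr5:151435948-151641214, with 6 at 29.2 per Mb, and then Vmn2r111 to Vmn2r117, chr17:22547941-23479597, with 27 at 28.98 per Mb, 8 of them named for a Vmn2r gene. Below their chromosomes were 4 clusters, Vmn2r84 to Vmn2r87 on chromosome 10 (0 peaks in 0.112 Mb, beside 13.3 per Mb), Vmn2r19 to Vmn2r27 on chromosome 6 (5 peaks, 5.41 per Mb beside 11.8), the chromosome 3 cluster (6 peaks, 7.09 beside 10.202) and Vmn2r-ps62 to Vmn2r79 on chromosome 7 (23 peaks, 10.33 beside 18.2).

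**Figure D1:**
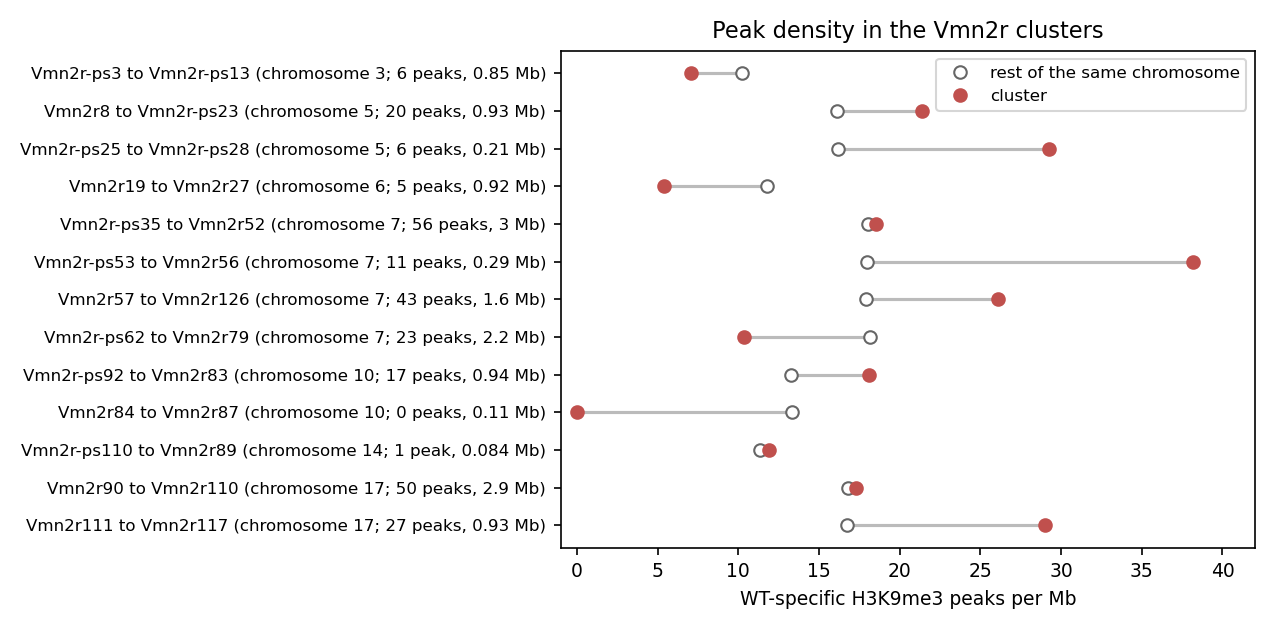
Peaks of the WT-specific list per Mb (x axis) in the 13 clusters that hold a Vmn2r gene (filled circles) and in the rest of the same chromosome (open circles), with the number of peaks and the length of each cluster. The 2 largest clusters, 56 and 50 peaks, sit next to their chromosome's value, and single clusters range from 0 to 38.2 per Mb.

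The chromosome 3 cluster holds family C, Vmn2r1 to Vmn2r7, whose members are co-expressed with other type 2 receptors in the vomeronasal organ. Of these 7 genes, 6 had a peak and Vmn2r4 had none, where 47.8% of all protein-coding genes had one. Only 2 of the 7, Vmn2r1 and Vmn2r2, held part of a peak inside the gene, beside 31.1%. For both it was the same peak, chr3:64163105-64163605, since Vmn2r2 lies within the span of Vmn2r1. The 7 peaks were all centred on a repeat, 5 on ERVK elements and 2 on L1, beside 54%, 13% and 16.3% of all peaks, and the highest of their scores was on an IAPEz-int element 34.3 kb from the Vmn2r1 TSS.

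Within the 2 largest clusters the peaks differed in what they sat on. Of the 56 peaks named for genes of the chromosome 7 cluster, 26 were centred on L1, 9 on ERVK and 16 outside repeats. Of the 46 of the chromosome 17 cluster, 22 were on L1, 18 on ERVK and 3 outside repeats. Median distance to the TSS was 27.4 kb in the first and 40.1 kb in the second, and median scores were 6.58 and 7.06.

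**Figure D2:**
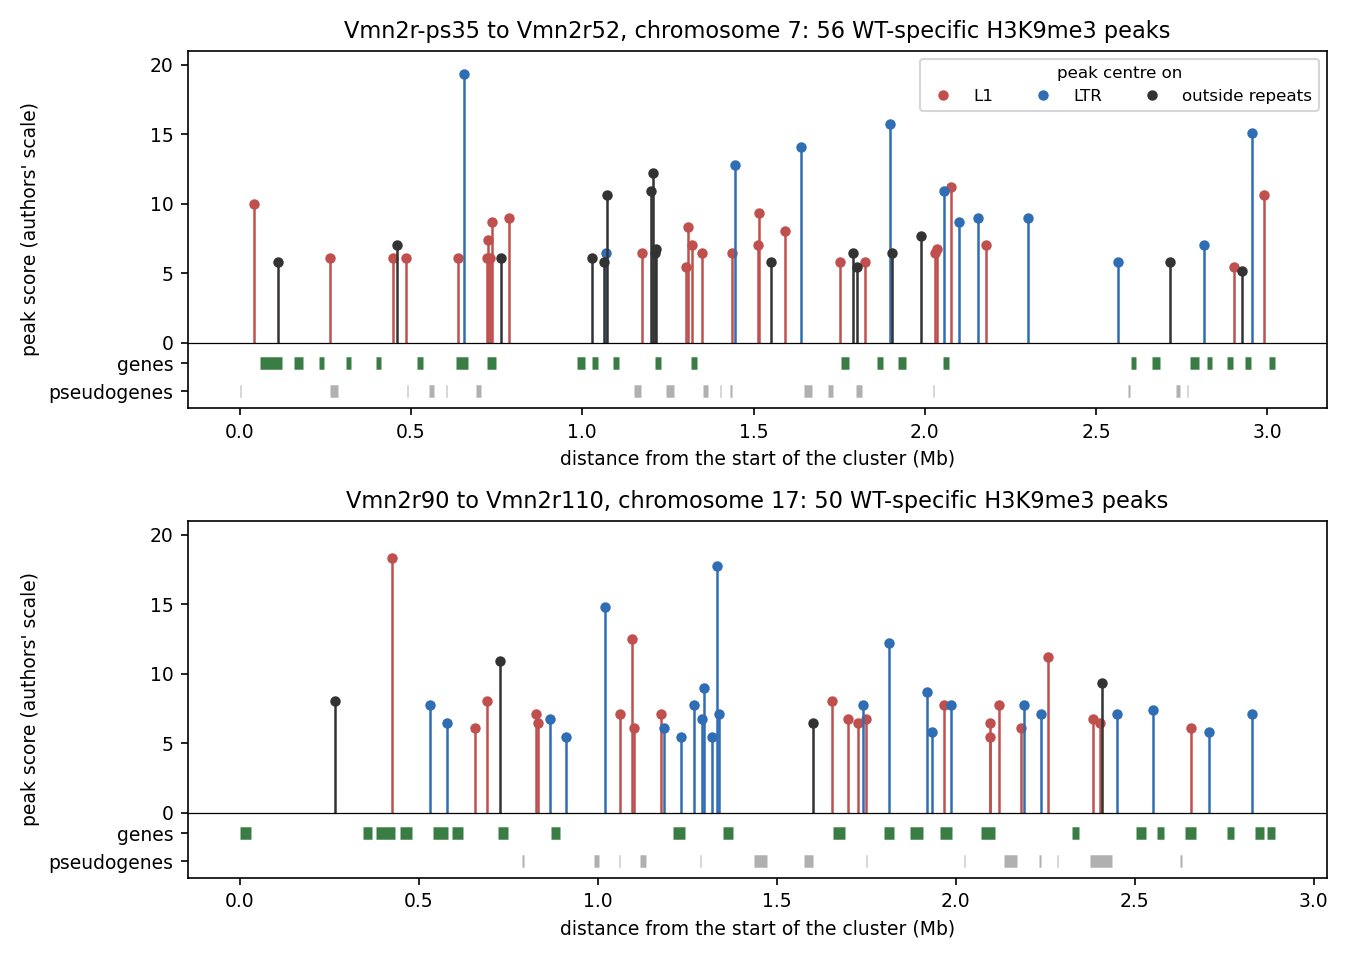
Scores (y axis, the authors' scale) of all 56 and 50 WT-specific peaks inside the 2 largest Vmn2r clusters, against the distance from the start of the cluster in Mb, with Vmn2r genes (green) and pseudogenes (grey) as bars under the axis and the colour giving what the peak centre lay on. Peaks stand between the genes as well as in them, and the highest scores, 19.3 and 18.3, fall on an LTR and an L1 element.

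Of the 213 peaks, 176 (82.6%, 77.0% to 87.1%) were centred on a repeat, against 54% of all peaks. L1 elements, the autonomous LINE retrotransposons, were at 98 peaks, 46.0% (39.4% to 52.7%), against 16.3%. LTR elements, the endogenous retroviruses and their relatives, were at 73 peaks, 34.3% (28.2% to 40.9%), against 26.6%. Of the LTR peaks 52 were on ERVK, the family of the IAP elements, 24.4% (19.1% to 30.6%) against 13% of all peaks, 12 on ERVL-MaLR, 5 on ERV1 and 4 on ERVL. SINEs were at 4 peaks, 1.88% (0.733% to 4.73%), and at 8.05% of all peaks. The remaining 37 peaks were outside repeats, 17.4% (12.9% to 23.0%) against 46%.

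Peaks named for the other large chemosensory families lay near these shares. On a repeat were 74.2% (68.2% to 79.5%) of 229 peaks of Vmn1r, the vomeronasal type 1 receptors, and 72.8% (68.2% to 77.1%) of 383 peaks of Olfr, the olfactory receptors. L1 was at 44.5% (38.2% to 51.0%) and 38.6% (33.9% to 43.6%) of them. LTR elements were at 26.2% (20.9% to 32.3%) and 29.8% (25.4% to 34.5%). Intervals of Vmn2r overlapped those of Vmn1r and Olfr for L1 and LTR, and no test of the differences was made.

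**Figure D3:**
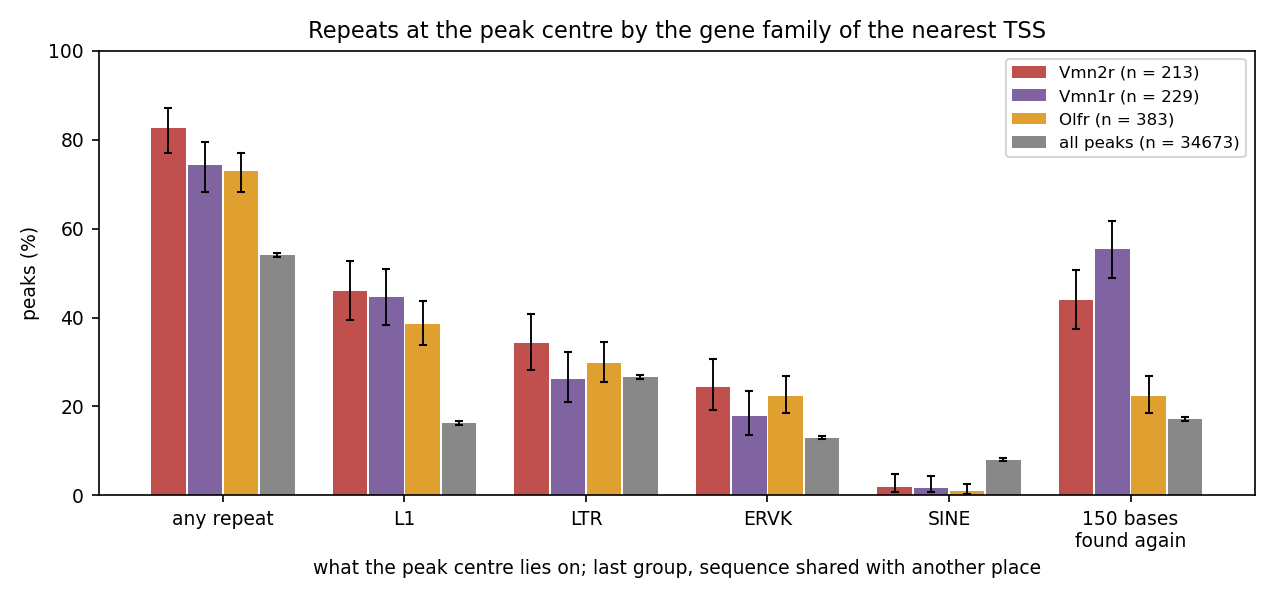
Share of peaks (y axis, %) centred on any repeat, L1, LTR, ERVK or SINE, and share with a 150-base window found again exactly elsewhere in the genome, for peaks named for Vmn2r, Vmn1r and Olfr genes and for all peaks; lines are 95% Wilson intervals. The Vmn2r bars for any repeat (82.6%) and L1 (46.0%) stand above those of all peaks (54.0% and 16.3%).

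Among the L1 names, L1Md_F2 was the most frequent, at 21 peaks of 18 genes. That was 9.86% of Vmn2r peaks, 5.24% of Vmn1r, 5.74% of Olfr and 2.28% of all peaks. L1Md_T followed with 12 peaks (5.63%, against 2.11% of all peaks), Lx2 with 11 (5.16%, against 0.715%) and L1_Mus3 with 10 (4.69%, against 0.816%). The L1Md names made up 43 of the 98 and the Lx names 36. Over all peaks they made up 2218 and 2105 of the 5650 on L1, a similar split. Among LTR names IAPEz-int was at 8 peaks of 8 genes (3.76%, against 2.01%) and MTA_Mm at 6 (2.82%, against 0.482%). Further LTR names such as MERVL-int and MMERVK9C_I-int were at 4 peaks each (1.88%), against 0.709% and 0.187% of all peaks.

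Scores of the 213 peaks ran from 4.81 to 19.3, with a median of 6.74 (order-statistic 95% interval 6.42 to 7.06) and quartiles of 6.10 and 8.34, and the median over all peaks was 7.06. The scale of the score is not stated in the file. Peaks on ERVK had a median of 7.70 (7.06 to 9.31), those on L1 6.42 (6.10 to 7.06) and those outside repeats 6.42 (6.10 to 7.06). Over the whole list the corresponding medians were 7.70, 6.74 and 6.74. Of the ERVK peaks 36.5% were wider than 500 bp, the width of most peaks, and of the L1 peaks 14.3%. Over the whole list the shares were 32.4% and 18.0%, a contrast of the same direction.

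Of the 10 highest scores 8 were on LTR elements, 1 on L1 and 1 outside repeats. The highest, 19.3, was the peak in Vmn2r35, chr7:7807497-7809216, which was also the widest at 1719 bp. After the Vmn2r91 intron peak came 17.7 on IAPEY3-int, 15.3 kb upstream of Vmn2r98, and 16.7 on IAPEy-int, 12.5 kb upstream of Vmn2r115. The peak outside repeats, chr14:51387790-51388685, scored 16.0 and lay 22.8 kb upstream of the TSS that the list gave for Vmn2r88, known as a receptor of haemoglobin. The others were named for Vmn2r39 (15.7, on ORR1B1), Vmn2r51 (15.1, IAPLTR3), Vmn2r96 (14.8, ERVB4_1-I_MM-int), Vmn2r81 (14.4, MERVL-int) and Vmn2r47 (14.1, IAPEY2_LTR). A name did not always mean a near gene, since the Vmn2r96 peak was 142 kb downstream of the TSS and the Vmn2r47 peak was placed by a TSS far from the annotated gene. When only peaks with a score at or above the list's median were counted, 105 Vmn2r peaks were left. Of these 45.7% (36.5% to 55.2%) were on LTR elements and 37.1% (28.5% to 46.7%) on L1, against 30.1% and 14.4% of all peaks in that range.

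Vmn2r peaks lay 26.7 kb from the TSS at the median (24.3 to 30.8 kb), with quartiles of 15.1 and 50.5 kb. The median was 12.1 kb (9.90 to 13.7 kb) for Vmn1r, 9.20 kb (8.38 to 11.1 kb) for Olfr and 37.4 kb for all peaks. Within 10 kb were 33 Vmn2r peaks of 28 genes, 15.5% (11.2% to 20.96%), an interval that holds the 19.4% of all peaks, while Vmn1r stood at 43.7% (37.4% to 50.1%) and Olfr at 53.0% (48.0% to 57.9%). Within 100 kb were 92.0% (87.6% to 94.96%), against 73.9% of all peaks, 97.8% for Vmn1r and 95.6% for Olfr. Genes with a peak within 10 kb were 22.2% (15.8% to 30.2%) of the members, against 20.7% of all protein-coding genes. No Vmn2r peak was annotated to a promoter or a 5′ UTR, and a count of 0 of 213 has a Wilson upper bound of 1.77%. Over all peaks the shares were 0.805% and 0.0808%, both under that bound, and Vmn1r had 0 of 229 in either class, so a lack of such peaks in the family could not be told from the background. None of the 213 lay within 1.5 kb of the TSS, where 8.73% (5.72% to 13.1%) of Vmn1r, 12.3% (9.36% to 15.9%) of Olfr and 2.53% of all peaks lay. The nearest Vmn2r peak stood at 1.54 kb, just past this limit, so the count of 0 depends on where the limit is set.

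Over all distances 116 peaks were upstream of the TSS and 97 downstream. Of the 33 within 10 kb, 23 were upstream and 10 downstream, 69.7% upstream (52.7% to 82.6%), against 52.0% for Vmn1r, 39.4% for Olfr and 46.0% for all peaks. The nearest was 1.54 kb upstream of Vmn2r18, chr5:151588098-151588832, on MTB-int with a score of 8.34. Next were peaks 1.99 kb upstream of Vmn2r81 on L1Md_F, 1.99 kb downstream of Vmn2r55 outside repeats and 2.15 kb upstream of Vmn2r28 on Lx2. The other 6 of the nearest 10 belonged to Vmn2r53, Vmn2r80, Vmn2r72, Vmn2r116, Vmn2r122 and Vmn2r99, from 2.27 to 3.16 kb upstream. Vmn2r116 is known as the receptor of the male tear peptide ESP1, and its peak, 2.64 kb upstream on L1Md_F3, scored 5.78. Scores of these 10 ran from 5.78 to 8.34, and none was among the 10 highest.

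**Figure D4:**
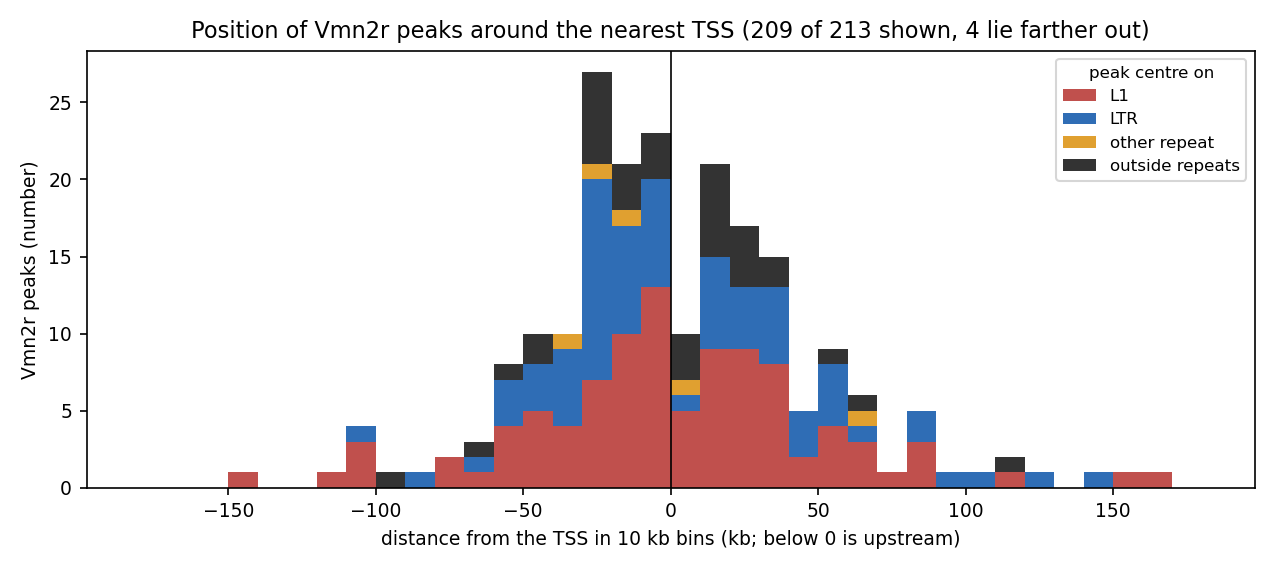
Number of Vmn2r peaks (y axis) in 10 kb bins of the distance from the TSS of the gene they are named for (x axis, kb, upstream below 0), coloured by what the peak centre lies on. The first bin upstream holds 23 peaks and the first bin downstream 10, and 4 peaks named for Vmn2r121 lie beyond the plotted range.

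The 5 peaks of Vmn2r121 were spread over chromosome X, 1 at 86.8 kb downstream of the TSS and 4 from 843 to 1282 kb upstream, with scores from 5.46 to 9.95. At that distance the gene name says little more than that no other TSS was nearer.

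Most Vmn2r peaks were intergenic, 168 or 78.9% (72.9% to 83.8%), against 59.4% of all peaks. Introns held 39, 18.3% (13.7% to 24.0%), against 34.2% of all peaks, 4.80% (2.70% to 8.40%) for Vmn1r and 2.35% (1.24% to 4.41%) for Olfr, and 34 of the 39 lay inside the gene they were named for. Of the intron peaks 36 were on a repeat, 23 of them on L1 and 12 on LTR elements. Vmn2r36, Vmn2r55 and Vmn2r62 each held 3 peaks in the gene, the most of any member.

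Exons held 5 peaks, 2.35% (1.01% to 5.38%) against 2.91% of all peaks, and these fell in 1 place. Each lay wholly in the last coding exon, exon 6 of 6, of Vmn2r16, Vmn2r24, Vmn2r44, Vmn2r62 or Vmn2r113, the exon that encodes the transmembrane part of the receptor. Over the 123 protein-coding members 5 of 123 last coding exons, 112 kb in all, held part of a peak, and 0 of the 603 other coding exons, 200 kb in all. The other coding exons include exon 3, which encodes much of the ligand-binding part and is 807 bp long at the median, beside 920 bp for the last. No test of this split was made.

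The 5 exon peaks had low to middling scores, 7.70 for Vmn2r16 at chr5:109363623-109364256, 7.06 for Vmn2r24 at chr6:123815751-123816251, 6.74 for Vmn2r44 at chr7:8367608-8368108, 6.42 for Vmn2r62 at chr7:42764690-42765190 and 5.46 for Vmn2r113 at chr17:22958309-22958809. All 5 were outside repeats. Those of Vmn2r44, Vmn2r62 and Vmn2r113 had 37, 3 and 4 copies elsewhere with at least 95% identity over at least 90% of the peak. For Vmn2r113, 2 of the copies overlapped listed peaks. The peaks of Vmn2r16 and Vmn2r24 had 0 such copies. Reads of the peaks with copies could fit other places, so their placement in the named gene is less sure. Vmn2r44 also had the single peak at a gene end, chr7:8366552-8367052, with a score of 6.42. The lines below are the same stretch of 120 bases from the 5 exon peaks on the gene's own strand, chosen as the stretch of the Vmn2r113 peak that aligned best without a gap. Capitals mark the 53 positions with the same base in all 5, 44.2% of the stretch. Pairs of genes shared from 63.3% (Vmn2r24 and Vmn2r44) to 80% (Vmn2r44 and Vmn2r113) of the positions. The stretches are chr5:109364057-109364176 (Vmn2r16, plus), chr6:123815868-123815987 (Vmn2r24, plus), chr7:8367792-8367911 (Vmn2r44, minus), chr7:42764758-42764877 (Vmn2r62, minus) and chr17:22958375-22958494 (Vmn2r113, plus).
Vmn2r16: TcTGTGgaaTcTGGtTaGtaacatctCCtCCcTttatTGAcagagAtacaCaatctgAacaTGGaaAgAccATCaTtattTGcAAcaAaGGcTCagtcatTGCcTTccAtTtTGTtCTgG
Vmn2r24: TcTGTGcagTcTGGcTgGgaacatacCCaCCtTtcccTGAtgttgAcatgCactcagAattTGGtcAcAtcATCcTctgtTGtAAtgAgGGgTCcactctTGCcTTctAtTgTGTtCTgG
Vmn2r44: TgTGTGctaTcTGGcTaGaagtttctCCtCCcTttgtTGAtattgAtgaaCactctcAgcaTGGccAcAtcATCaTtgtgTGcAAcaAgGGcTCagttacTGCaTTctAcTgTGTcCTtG
Vmn2r62: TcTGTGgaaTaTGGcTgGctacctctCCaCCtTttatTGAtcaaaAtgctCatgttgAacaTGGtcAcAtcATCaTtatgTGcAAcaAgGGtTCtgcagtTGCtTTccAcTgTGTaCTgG
Vmn2r113: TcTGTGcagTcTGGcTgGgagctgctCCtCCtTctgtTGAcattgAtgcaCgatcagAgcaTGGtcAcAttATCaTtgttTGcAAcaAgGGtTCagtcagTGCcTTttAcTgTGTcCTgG

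**Figure D5:**
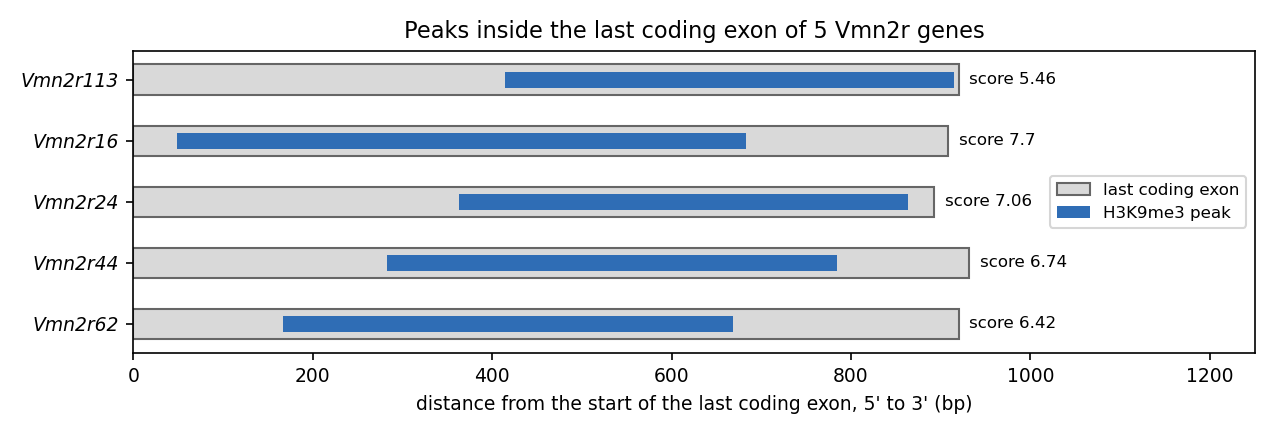
The last coding exon (grey bars) of the 5 Vmn2r genes with an exon peak, to scale in bp from its 5′ end (x axis), with the H3K9me3 peak (blue) and its score. Each peak lies inside its exon, and the exons are 893 to 932 bp long.

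Aligning every coding exon of the members to all peaks gave further peaks of this kind. With at least 80% identity over 200 bases or more, 11 peaks of the list resembled a last coding exon and 2 another coding exon. The 200-base minimum favoured the last exon, 920 bp long at the median. Coding exon 5 had a median of 124 bp, and exons 1 and 4, at 206 and 228 bp, could pass only if aligned almost whole. The counts of 11 and 2 therefore do not compare the exons. Of the 11, 8 were named for a Vmn2r gene, the 5 above and 3 annotated as intergenic that lay in pseudogenes. These were a peak named for Vmn2r99 in Vmn2r-ps120 (score 6.42, 93.6% identical to the exon of Vmn2r100), one named for Vmn2r40 in Vmn2r-ps42 (5.46, 90.9%, Vmn2r42) and one named for Vmn2r74 in Vmn2r-ps82 (5.78, 86.2%, Vmn2r66). In Vmn1r and Olfr, whose coding sequence is mostly in 1 exon, exon peaks were 6.55% (4.01% to 10.52%) and 11.5% (8.67% to 15.1%).

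Many of these sequences are not unique, which bears on where a read could be placed, since a read that fitted several places was kept at its best location only. Of the 212 Vmn2r peaks on assembled chromosomes, 96, 45.3% (38.7% to 52.0%), had a copy elsewhere with at least 95% identity over at least 90% of the peak. On a repeat it was 43.4% (36.3% to 50.8%) and outside repeats 54.1% (38.4% to 69.0%). The number of copies ranged up to 20538, for an L1Md_T peak 3.60 kb from Vmn2r55, and its median was 7. Outside repeats, 17 of 21 peaks on chromosome 7 had a copy, and 3 of 16 on the other chromosomes. For all 17 the closest copy lay in a Vmn2r cluster.

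A measure that could be taken over the whole list gave a like picture. At least 1 window of 150 bases, the read length, was found again exactly elsewhere in 93 of 212 Vmn2r peaks, 43.9% (37.4% to 50.6%), against 17.2% of all peaks, 55.3% (48.8% to 61.6%) of Vmn1r and 22.5% (18.6% to 26.9%) of Olfr. Outside repeats it was 54.1% (38.4% to 69.0%) of Vmn2r and 6.80% of all peaks. By this measure 51 of the 56 peaks named for genes of the largest chromosome 7 cluster had a copy. In the largest chromosome 17 cluster it was 6 of 46, so the share for the family rested heavily on 1 array. Vmn2r peaks had 46.4% GC at the median and all peaks 49.1%.

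Some peaks overlapped near-identical copies of other peaks in the list. In the chromosome 7 cluster 4 peaks in and around Vmn2r35 and Vmn2r36 had a counterpart in the list 791 kb further on, in the same order over 108 kb. The counterparts were named for Vmn2r45, whose TSS was 109 kb away, and Vmn2r47. Not every peak of that span had one. The Vmn2r36 peaks at chr7:7884270-7884770 and chr7:7890922-7891675 had their closest copies, 100% and 99.9% identical, at chr7:8674927-8675427 and chr7:8681555-8682308. These copies are not in the list. Of the 96 Vmn2r peaks with a copy, 49 had no copy in the list. A copy of the IAPEz-int peak in Vmn2r35 (19.3), with 100% identity, overlapped an IAPEz-int peak named for Vmn2r45 (12.8). The L1Md_F2 peak printed above scored 6.10 under the name Vmn2r36 and 7.06 in its counterpart, and the Lx3_Mus peak next to it 7.38 and 9.31. The fourth pair, outside repeats and 100% identical, scored 6.10 and 5.78. A peak in such a pair cannot be told from its counterpart by reads that match both, so the 2 scores are not independent measurements. The Vmn2r121 peaks outside repeats were likewise 100% identical to each other, 0.432 Mb apart, with scores of 5.46 and 7.70.

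The gene names were checked against RefSeq. For 204 of the 213 peaks the distance in the list matched the annotated TSS within 2 bp. All 5 peaks of Vmn2r47 and 1 of the 2 of Vmn2r46 referred to another TSS. For Vmn2r47 it stood at position 8825685 of chromosome 7, about 1 Mb from the annotated gene at chr7:9816782-9841325, so the 5 peaks of that name were not near the annotated Vmn2r47. The peaks of Vmn2r88, Vmn2r105 and Vmn2r123 named transcripts that the annotation did not hold. Without these 9 peaks 86 genes kept a peak.

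Genes around the receptors were taken as a fixed list of 27, from the signalling chain of the vomeronasal neuron to its co-expressed neighbours. A peak was named for 14 of the 27, 42 peaks in all, beside the 47.8% of protein-coding genes given above. Gnao1 and Trpc2, which carry the type 2 receptor signal, had no named peak, although 4 peaks named for other genes lay inside Gnao1. Omp, a marker of mature sensory neurons, had 1 in its 3′ UTR with a score of 6.42, and Gnai2, the G protein subunit of the type 1 receptor cells, had 1 at 1.93 kb. Ano1 and Ano2, calcium-activated chloride channels, had 6 and 9. Bcl11b, a transcription factor of the basal vomeronasal neurons, had 10, the nearest 57.55 kb from its TSS, with 3 peaks inside the gene. Tfap2e, which directs the same fate, and Meis2 had 0. Of the 9 H2-M genes, class Ib MHC molecules that accompany some type 2 receptors, 6 had a peak, with 2 for H2-M10.2, the nearest 0.404 kb from its TSS. Of the 4 formyl peptide receptors Fpr-rs3, Fpr-rs4, Fpr-rs6 and Fpr-rs7, Fpr-rs6 had 1 and the others 0.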

How the data were processed

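H3K9me3 in BG at postnatal day 10 was represented by 1 deposited list of WT-specific peaks, in which the libraries were merged. Per the methods and the submitters' processing notes, the authors aligned PE150 reads to mm10 with Bowtie2 (2.2.8), kept the best single location of a read that matched several places and 1 tag per position, and called and annotated peaks with HOMER (4.10.1). The unit of the deposited peak score is not stated, so it is treated as a score with no fixed range. The deposited list gives no counts, and depth is unknown.

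Vmn2r peaks were selected by gene name, and the members and lists were chosen with earlier results of these data known. Genes, exons and sequences came from RefSeq GRCm38.p6, the same build as mm10. Intervals are 95% Wilson intervals, or order-statistic intervals for medians. Near-identical copies were found with blastn (2.17.0, megablast, word 28), and coding exons were compared with all peaks by blastn. Such an alignment of every peak was not run, and exact 150-base windows were counted over all peaks instead, a choice made after seeing the data, as were the comparison of coding exons with peaks and the exon stretches printed. The counting steps were tested on simulated data. Genes named in the text were those with most peaks, the highest scores, the peaks nearest to the TSS, peaks in exons or gene ends, family C and a signalling list, and peaks that pair with a copy were added after their values were seen.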

Additional observations from a re-analysis of the deposited data

How the results depend on the processing

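Of 35 alternative settings over 9 results, 25 left the value within its interval or, for counts, within 1.5 times. With scores at or above the list's median, 105 peaks were left, and L1 fell to 37.1% and LTR elements rose to 45.7% of them. Cluster density was then 9.23 peaks per Mb, beside 6.56 over the chromosomes under the same setting, a value not matched by chromosome. Within 10 kb of the TSS there were 33 peaks of 28 genes. Genes with a peak numbered 35 with the peak inside the gene, 54 with 5 kb added and 28 with peaks outside repeats, against 89 by name, and the last is 22.2% of the members, below the 32% of all protein-coding genes. With 1 peak per gene, the nearest to the TSS, the median distance was 15.6 kb. Alternatives that kept these results included the nearest TSS from RefSeq (209 peaks), pseudogenes added (222), cluster gaps under 0.5 or 2 Mb (18.1 and 19.1 peaks per Mb) and copies at 90% or 98% identity (124 and 73). Leaving out the peaks whose TSS differs from RefSeq (204 peaks, 86 genes) and counting exact windows (93) were chosen after seeing the data. No paired analysis was possible because the merged list keeps the libraries apart in no column, which also left no library to take out.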

Other observations

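Pseudogenes of the family were left out of the counts above, and 9 peaks of the list were named for them, at Vmn2r-ps54, Vmn2r-ps60, Vmn2r-ps129 and Vmn2r-ps159. Another 4 clusters by the same rule held no Vmn2r genes other than pseudogenes, and no Vmn2r peak by name. Vmn2r-ps15 to Vmn2r-ps20, chr4:145701675-147521814, held 75 peaks at 41.2 per Mb, beside 14.2 in the rest of chromosome 4, and 23.7% of its bases are unknown in the assembly. Vmn2r-ps95 to Vmn2r-ps109, chr13:65353153-66873018, held 43 at 28.3 per Mb beside 13.3. Together the 4 clusters reached 31.5 peaks per Mb, beside 17.6 in the 13 clusters with a Vmn2r gene, values not matched by chromosome. Every peak inside a span was counted, whatever gene it was named for, so these densities do not describe the pseudogenes themselves. No test was made.

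Of the 11 peaks that resembled a last coding exon, the 3 not named for a Vmn2r gene also lay in pseudogenes of the family, Vmn2r-ps56 and Vmn2r-ps130, both under the name of another pseudogene, and Vmn2r-ps131, under the name Zfp40. Their identities to the closest exon were 97.8%, 98.8% and 97.4%, and their scores 6.10, 5.46 and 7.70.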
